A study of Mus musculus with 32 samples.

Results

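The Trim5/Trim30 cluster is a run of 10 neighbouring mouse genes, Trim5, Trim6, Trim12a, Trim12c, Trim30a, Trim30b, Trim30c, Trim30d, Trim34a and Trim34b, that spans 289 kb of chromosome 7 (mm10, 104218795 to 104507853). The genes were chosen by their counts before stimulation, at which many of them differed between genotypes. The difference at 0 h is therefore given as a description without a test. The values at 1, 5 and 18 h come from libraries that the choice did not use, though of the same genotypes. Of the 25067 genes in the deposited table, 9 belong to the cluster, and Trim30c has no row in it. All 9 passed the filter on low values, a mean above 1 read per kilobase of transcript per 1000000 reads (RPKM) in at least 1 group. Trim5, Trim6 and Trim30b passed it through BMDM-WT groups alone, whereas the other 6 passed in groups of both genotypes. For Trim6 the only such group was BMDM-WT at 18 h, and for Trim30b they were BMDM-WT at 5 and 18 h.

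RNA-seq was performed on bone marrow-derived macrophages (BMDMs) in 32 libraries, 4 for each of 8 groups. The groups were BMDM-WT and BMDM-Nur77-KO after 0, 1, 5 and 18 h with 100 ng/ml lipopolysaccharide (LPS), a component of the bacterial outer membrane that activates macrophages through Toll-like receptor 4. The marrow came from male mice aged 6 to 12 weeks, of strain C57Bl6/J in every label, and was cultured for 7 days. In the Nur77-KO mice, which the labels give as genotype cre, a loxP-flanked Nr4a1 gene had been deleted in the whole body by Cre recombinase under the cytomegalovirus promoter, the Cre transgene had then been bred out, and the controls were wild-type littermates. Cells were seeded in 4 replicate wells, and the number of animals behind them is not stated, so p-values measure the spread between these libraries, which may be technical.

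Proteins of the tripartite motif (TRIM) family carry a RING domain, which is usually an E3 ubiquitin ligase, one or more B-boxes and a coiled coil. Most members of this cluster end in a B30.2 domain, also called PRY-SPRY, which recognises target proteins. TRIM5 is known as a restriction factor that binds the capsid of incoming retroviruses, and in mice the ancestral gene has been duplicated into Trim5, Trim12a, Trim12c and the Trim30 genes. TRIM34 is a close relative of TRIM5, and TRIM6 is known for ubiquitin chains that assist type I interferon signalling. Trim30a is known as a brake on Toll-like receptor signalling to NF-kB. Many genes of the family are induced by interferon.

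The members are close copies of one another. The Trim34b transcript aligned to that of Trim34a at 98.7% identity, Trim5 to Trim12c at 94.3% over 3710 bases, Trim12a to Trim5 at 97.0% over 952 bases, and Trim30a to Trim30d at 89.9% over 1721 bases. A read from an identical stretch cannot be assigned to 1 copy. Of all stretches of 100 bases, 32.6% in Trim34b, 22.7% in Trim34a, 12.7% in Trim5, 11.3% in Trim12a, 9.75% in Trim30d, 7.64% in Trim12c and 4.79% in Trim30a recur in a transcript of another gene. Of all stretches of 150 bases, the share was 12.8% in Trim34b, 8.85% in Trim34a, 7.18% in Trim30d and 3.74% in Trim5. It was 3.48% in Trim30a, 2.56% in Trim12c and 1.72% in Trim12a. A longer read is thus less often ambiguous than the shares at 100 bases show. Trim6 and Trim30b hold no such stretch of either length. The authors removed alignments of low mapping quality, a step that can drop reads from shared stretches, so the levels of the copies that share most sequence are uncertain.

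The likeness extends into the promoters. In the RefSeq promoter windows (GRCm38.p6, 250 bases before to 50 after the annotated start), the core of the interferon-stimulated response element, GAAANNGAA on either strand, was found in 8 of 11 windows of the cluster and in 8.56% of 32851 windows of all genes. The windows with it belong to Trim5, Trim12a, Trim12c, Trim30a (both of its windows), Trim30d, Trim34a and Trim34b. The stretches around the matches that lie before a start site are given here, 5′ to 3′ on the strand of the gene, because they let the copies be compared base by base. Capitals mark the match, which lies on the opposite strand in each.
Trim30a, chr7:104465195-104465253, minus strand: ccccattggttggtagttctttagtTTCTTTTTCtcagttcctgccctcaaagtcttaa
Trim30d, chr7:104507856-104507914, minus strand: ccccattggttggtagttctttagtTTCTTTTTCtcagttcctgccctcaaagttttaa
Trim5, chr7:104288121-104288179, minus strand: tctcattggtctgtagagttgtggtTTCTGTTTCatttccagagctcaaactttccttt
Trim12c, chr7:104353350-104353402, minus strand: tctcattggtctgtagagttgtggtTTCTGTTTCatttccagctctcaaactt
Trim34b, chr7:104329235-104329293, plus strand: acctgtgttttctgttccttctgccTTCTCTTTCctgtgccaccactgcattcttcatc

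The Trim30a and Trim30d stretches share 58 of 59 bases and differ by C55T, with Trim30a first and positions counted from 1 at the first base shown. Trim5 and Trim12c share 51 of 53 bases and differ by A43C and G44T, with Trim5 first. The NBRE, the site AAAGGTCA that Nur77 binds as a monomer, was found in 1 window of the cluster, that of Trim30b from position -244 to -237 relative to the start, and in 1.51% of all windows. The AP-1 site TGANTCA was found in the windows of Trim30a, Trim30d and Trim34b and in 7.81% of all windows. The NF-kB site GGGNNTTCC was found in 0 of 11 windows of the cluster and in 5.82% of all windows. These are matches of letters and say nothing of binding.

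Totals were 8742362 to 15780926 tags per library, with a median of 11847140. Nr4a1, on chromosome 15, had the lower level in BMDM-Nur77-KO at 0 h (5.25 ± 1.19 counts per 1000000 (CPM), against 19.7 ± 4.35, mean ± SD, n = 4) and at 1 h (191 ± 39.9 against 437 ± 60.3 CPM), with reads remaining in the knockout. All 8 macrophage markers were detected, with summed group means of 11912 to 17366 CPM. The summed markers of neutrophils were 18.2 to 41.9 CPM, of B cells 2.12 to 3.57, of T cells 0.0273 to 0.582, of fibroblasts 0.180 to 1.48 and of dendritic cells 0.973 to 15.4 CPM, the last highest at 5 h in both genotypes. All 6 erythroid markers had at most 3 counts in every library. Fewer cells of a type and less RNA per cell cannot be told apart in these bulk samples.

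Before LPS, the per-length order of the genes differed between genotypes. In BMDM-WT it was Trim30a (24.1 ± 2.98 RPKM), Trim30d (10.3 ± 1.36), Trim12c (7.92 ± 0.857), Trim12a (6.76 ± 1.22), Trim34a (4.63 ± 0.570), Trim5 (1.27 ± 0.287), Trim34b (0.518 ± 0.0472), Trim6 (0.197 ± 0.0678) and Trim30b (0.0850 ± 0.0785). Libraries of Trim30d and Trim12c, of Trim12c and Trim12a, and of Trim6 and Trim30b overlapped. In BMDM-Nur77-KO, Trim30a (23.2 ± 2.26 RPKM) and Trim12c (9.65 ± 0.719) were followed by Trim34b (1.49 ± 0.182), Trim34a (1.03 ± 0.402) and Trim30d (0.909 ± 0.132), whose neighbours in this order overlapped. Trim5 (0.250 ± 0.161) and Trim12a (0.187 ± 0.125) came next and also overlapped, Trim6 was at 0.0380 ± 0.0270, and Trim30b had 0 counts in all 4 libraries. Relative to BMDM-WT, the 0 h level was lower, without overlap of libraries, for Trim5, Trim6, Trim12a, Trim30b, Trim30d and Trim34a. It was higher for Trim34b and, by a log2 fold change of only 0.28, for Trim12c, also without overlap. The libraries of Trim30a overlapped. The genes were chosen by these values, and the share of all genes without overlap was not computed, so this is a description alone.

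**Figure D1:**
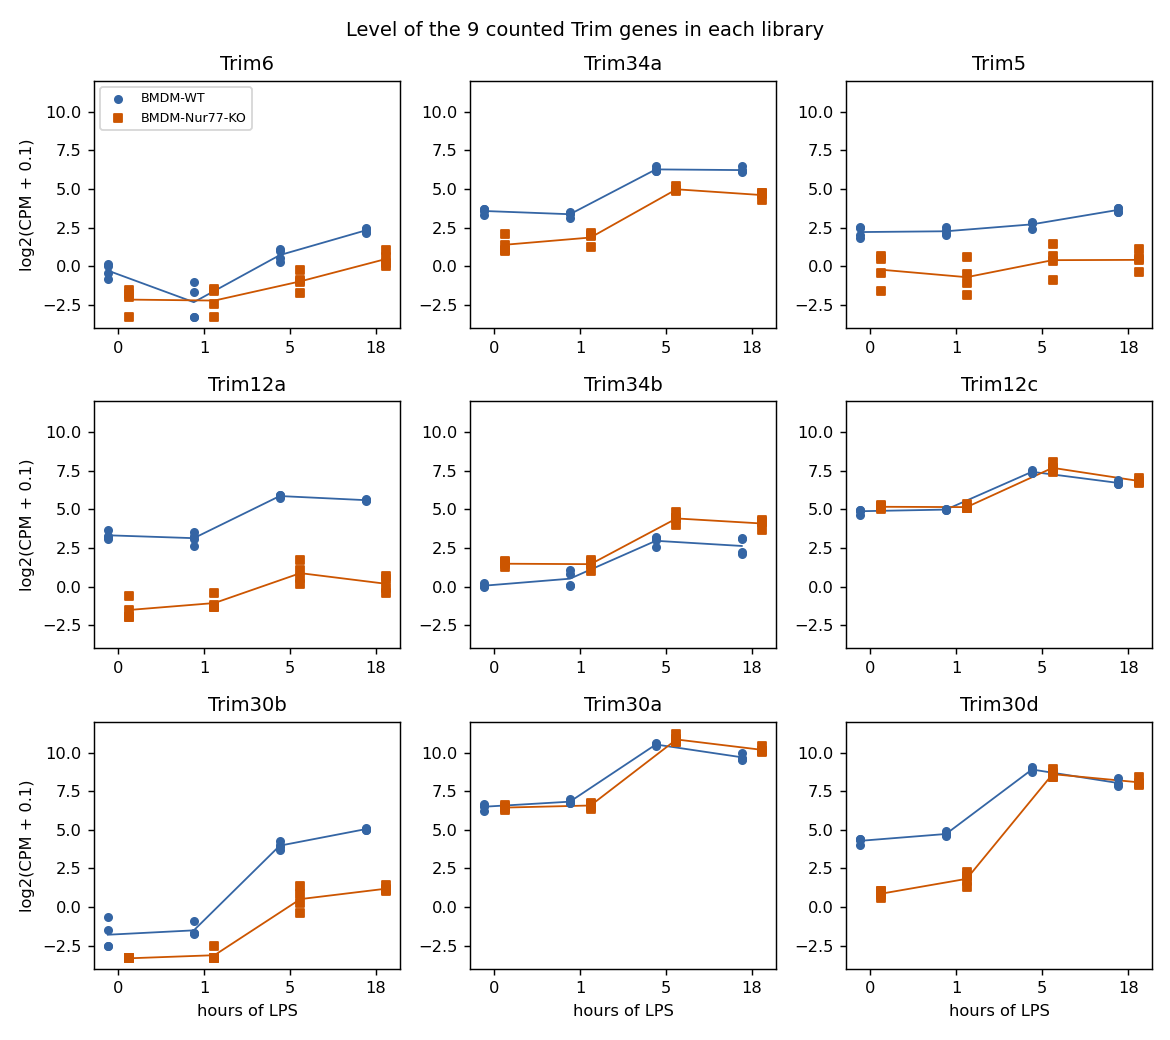
Level of the 9 counted genes of the cluster in each library, as log2(CPM + 0.1), at 0, 1, 5 and 18 h of LPS. Each point is 1 library, lines join the group means of these log2 values, blue circles are BMDM-WT and orange squares BMDM-Nur77-KO; Trim12a stays low in BMDM-Nur77-KO at every time, whereas Trim30d joins BMDM-WT at 5 and 18 h.

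The genotypes were compared after LPS, the comparison by which the study asks whether loss of Nur77 alters gene expression in activated macrophages. For this cluster, whether both genotypes carry the same sequence of the segment was not tested, so differences are given by genotype alone. A gene was called when its adjusted p was under 0.05 and its log2 fold change passed 0.58 in edgeR's quasi-likelihood test across 11258 genes. At 1 h, 5 of 9 members were lower in BMDM-Nur77-KO (Trim5, Trim12a, Trim30b, Trim30d and Trim34a), against 1.36% of all tested genes, and 1 was higher (Trim34b), against 1.51% of all. At 5 h, 5 were lower (Trim5, Trim6, Trim12a, Trim30b and Trim34a), against 3.13%, and Trim34b was higher, against 5.60%. At 18 h the lower 5 and the higher gene were those of 5 h, against 4.11% and 5.71%. The members were chosen for a difference between the same genotypes before LPS, which can carry over into these counts. The shares of all genes are therefore no fair yardstick for them, least of all at 1 h. The median log2 fold change of the 9 members was -1.49, -1.29 and -1.62 at 1, 5 and 18 h, whereas that of all tested genes was 0.02 at 5 h and -0.01 at 18 h. Trim12a, Trim5, Trim34a, Trim30b and Trim34b were thus called at all 3 times, although the 1 h calls of Trim30b and Trim34b were not stable, as given for each. For Trim5, Trim6 and Trim30b, which passed the filter through BMDM-WT alone, the filter favours a lower level in BMDM-Nur77-KO. With no filter on low values, the genes called at 5 and 18 h were these same genes, and the 1 h call of Trim30b was lost (adjusted p = 0.051).

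**Figure D2:**
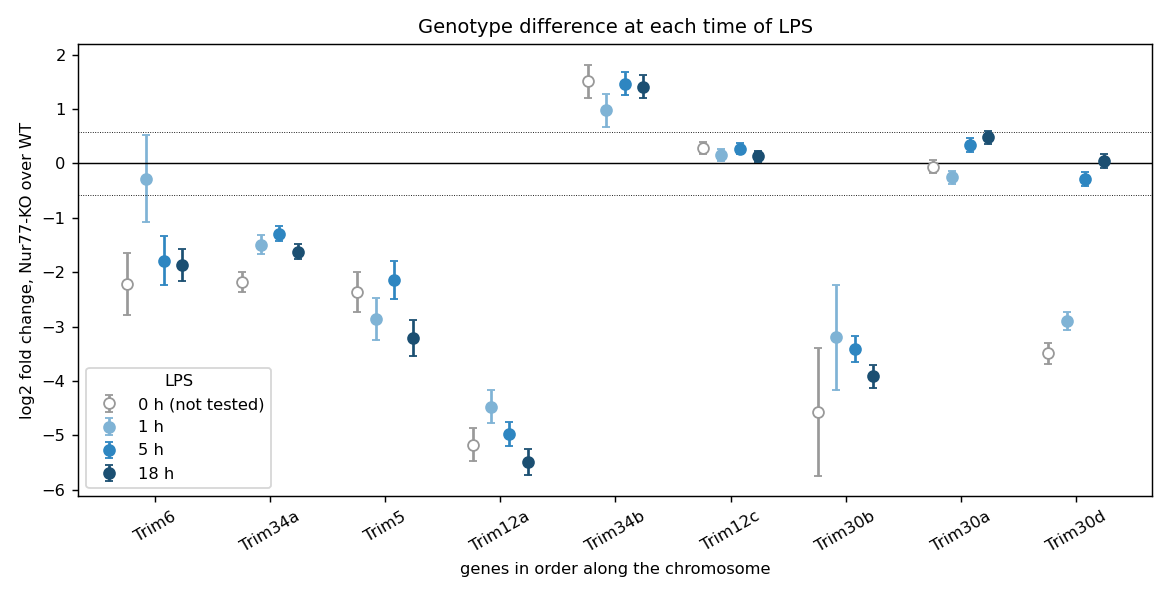
Log2 fold change of BMDM-Nur77-KO over BMDM-WT for each gene, in order along the chromosome, at 0 h (open, not tested), 1, 5 and 18 h. Bars are standard errors of the fit and dotted lines mark 0.58 either way; the fitted values of Trim6 at 0 and 1 h and of Trim30b at 0 and 1 h rest on at most 3 counts per BMDM-Nur77-KO library and are no measure of size.

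Trim12a, one of the Trim5 copies, showed the largest difference of the 9 genes at each tested time. At 1 h the BMDM-WT libraries had 11.4, 6.06, 9.77 and 8.56 CPM and the BMDM-Nur77-KO libraries 0.342, 0.301, 0.639 and 0.301 CPM. At 5 h they had 60.6, 58.9, 52.7 and 62.0 CPM against 3.16, 1.01, 2.01 and 1.38 CPM. At 18 h they had 51.1, 48.8, 46.0 and 48.4 CPM against 1.52, 1.34, 0.841 and 0.654 CPM. Every BMDM-Nur77-KO library was below every BMDM-WT library at each time. The log2 fold change was -4.47 ± 0.30 (SE) at 1 h (edgeR adjusted p = 3.4e-12), -4.98 ± 0.22 at 5 h (adjusted p = 1.4e-16) and -5.49 ± 0.23 at 18 h (adjusted p = 2.6e-17). At 0 h the description was the same, with a mean of 0.278 CPM in BMDM-Nur77-KO against 10.0 CPM in BMDM-WT.

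The 3 transcripts listed for Trim12a differed in how the few tags of BMDM-Nur77-KO fell on them. NM_001368754 held 56.5%, 57.4% and 52.5% as many tags as NM_023835 in BMDM-WT at 1, 5 and 18 h. In BMDM-Nur77-KO it held 100% at 1 h, where NM_023835 had only 19.0 tags over the 4 libraries, 70.6% at 5 h and 100% at 18 h. The third transcript, NM_001368753, held 92.6% to 94.4% in BMDM-WT and 98.7% to 100% in BMDM-Nur77-KO at these times. Over the 4 BMDM-WT libraries at 18 h, 1024.5 of the 2156.5 tags on NM_023835 were in excess of those on NM_001368754, and in BMDM-Nur77-KO 0.0 of 51.5. The tags on both rows were thus equal in BMDM-Nur77-KO at 18 h, whereas at 5 h they differed by 22.5 of 76.5 tags. The table gives tags per transcript only, and which exons these are was not analysed here.

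Trim5, which encodes a mouse relative of the retroviral restriction factor, was low in both genotypes, and the knockout had the smaller values. Trim5 at 1 h had 5.69, 5.07, 4.28 and 3.97 CPM in BMDM-WT and 0.171, 0.376, 1.44 and 0.601 CPM in BMDM-Nur77-KO. By 18 h it had 13.4, 11.4, 13.7 and 11.4 CPM against 1.34, 1.25, 2.03 and 0.654 CPM. The groups did not overlap at 1, 5 or 18 h. The log2 fold change was -2.86 ± 0.39 at 1 h (adjusted p = 7.1e-06), -2.15 ± 0.35 at 5 h (adjusted p = 6.8e-05), where the means were 6.50 ± 0.861 and 1.43 ± 0.895 CPM, and -3.21 ± 0.33 at 18 h (adjusted p = 6.5e-09). These values rest on the BMDM-WT groups through which alone Trim5 passed the filter. With no filter the edgeR adjusted p was 1.5e-06, 3.0e-05 and 6.5e-10 at 1, 5 and 18 h.

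Trim34a and Trim34b, the pair of TRIM34 genes, moved in opposite directions. Trim34a had 11.1, 10.4, 8.70 and 10.9 CPM in BMDM-WT at 1 h and 2.31, 3.84, 3.99 and 4.36 CPM in BMDM-Nur77-KO. By 18 h it had 70.9, 74.0, 88.8 and 67.6 CPM against 26.3, 26.4, 19.5 and 25.7 CPM. Its groups did not overlap at any time. The log2 fold change of Trim34a was -1.49 ± 0.18 at 1 h (adjusted p = 8.3e-07), -1.29 ± 0.14 at 5 h (adjusted p = 9.0e-08) and -1.62 ± 0.14 at 18 h (adjusted p = 3.7e-10).

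Trim34b was the one gene of the 9 called higher in BMDM-Nur77-KO. At 5 h it had 8.66, 5.76, 7.99 and 8.99 CPM in BMDM-WT and 15.9, 21.3, 21.3 and 28.5 CPM in BMDM-Nur77-KO. By 18 h it had 8.61, 4.58, 4.26 and 8.29 CPM against 20.1, 18.2, 18.1 and 12.4 CPM. The groups did not overlap at these times, and the log2 fold change was 1.47 ± 0.21 at 5 h (adjusted p = 7.7e-06) and 1.41 ± 0.21 at 18 h (adjusted p = 4.3e-06). At 1 h the libraries overlapped (0.996, 1.97, 0.937 and 1.67 against 1.88, 2.71, 3.27 and 2.93 CPM), and the log2 fold change was 0.98 ± 0.30 (adjusted p = 0.041). In fits without a single library of 1 h, this call held only without BMDM-WT replicate 2 or BMDM-Nur77-KO replicate 1. The adjusted p reached 0.16 without BMDM-WT replicate 3.

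Because Trim34a and Trim34b share so much sequence, their counts were also added up. The sum was 11.7 ± 1.36 CPM in BMDM-WT and 6.32 ± 1.46 in BMDM-Nur77-KO at 1 h, 85.4 ± 8.53 and 53.4 ± 5.23 CPM at 5 h, and 81.7 ± 7.68 and 41.7 ± 4.48 CPM at 18 h. It was lower in every BMDM-Nur77-KO library at each of these times, with an exact two-sided permutation p of 0.0286 each, the smallest that 4 against 4 can give, and 0.0514 after adjustment over the 9 sums examined. Trim34a made up 88.1% to 92.1% of the sum in BMDM-WT and 57.3% to 59.3% in BMDM-Nur77-KO at these times. The fall in Trim34a counts was therefore larger than the gain in Trim34b counts. How many reads of either copy were lost or moved to the other in alignment was not tested.

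The sum of Trim12a and Trim12c was likewise computed. It overlapped between genotypes at 1 and 5 h (exact permutation p = 0.114 and 0.400) and was lower in every BMDM-Nur77-KO library at 18 h (117 ± 12.4 against 155 ± 8.85 CPM, exact permutation p = 0.0286, adjusted 0.0514). Trim12a made up 22.0% to 31.4% of that sum in BMDM-WT and 0.890% to 1.10% in BMDM-Nur77-KO after LPS. The pairs to be added were chosen after the values of single genes were known.

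**Figure D3:**
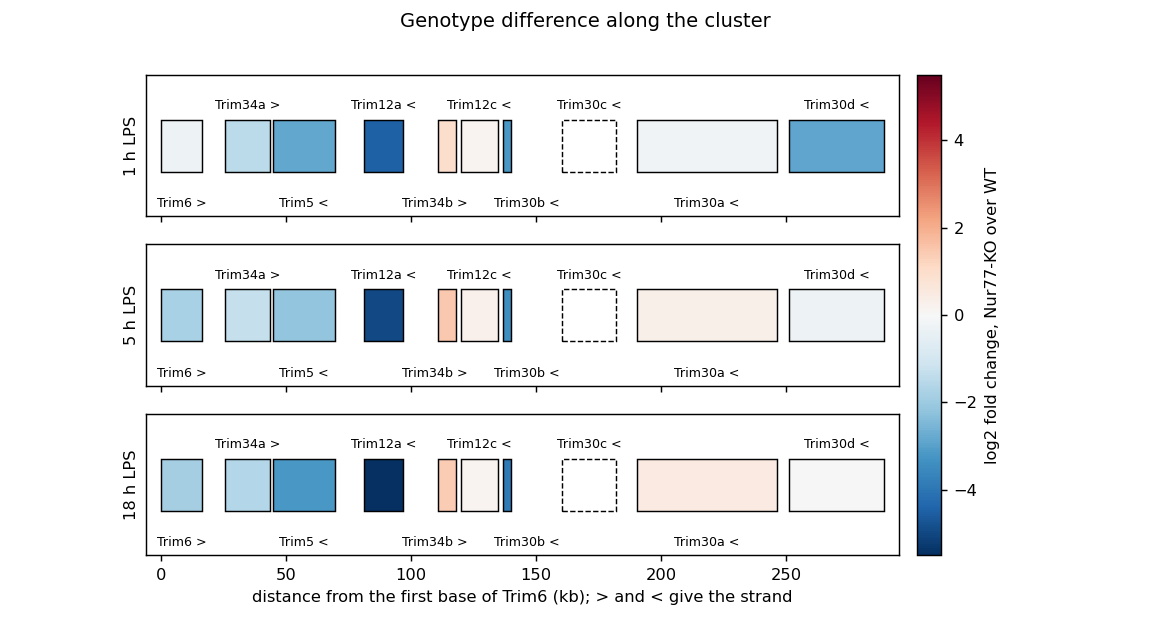
Map of the cluster with each gene drawn to scale by its distance from the first base of Trim6 in kb and coloured by its log2 fold change of BMDM-Nur77-KO over BMDM-WT at 1, 5 and 18 h of LPS. The signs > and < give the strand and the dashed box is Trim30c, which has no row; at 5 and 18 h the genes from Trim6 to Trim12a are lower (blue), followed by Trim34b (higher, red), Trim12c (near 0) and Trim30b (lower).

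Trim12c, the other close Trim5 copy, was the member with the least change between genotypes over the tested times. It had 32.6, 31.5, 32.1 and 30.8 CPM in BMDM-WT at 1 h and 33.5, 33.4, 41.4 and 34.2 CPM in BMDM-Nur77-KO. At 18 h its means were 106 ± 10.2 and 116 ± 12.7 CPM, and libraries overlapped. The log2 fold change was 0.16 ± 0.11 at 1 h, 0.27 ± 0.10 at 5 h and 0.13 ± 0.10 at 18 h, with adjusted p of 0.51, 0.052 and 0.43. In the genome it lies between Trim34b, higher in BMDM-Nur77-KO, and Trim30b, lower in BMDM-Nur77-KO.

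Trim30b, a Trim30 copy with no stretch of 100 bases in common with another gene, was nearly silent before LPS. It had 1 to 7 counts per BMDM-WT library at 0 h and 0 counts in all BMDM-Nur77-KO libraries. At 5 h it reached 16.2, 14.7, 12.9 and 19.6 CPM in BMDM-WT and 1.09, 1.68, 0.671 and 2.46 CPM in BMDM-Nur77-KO. At 18 h it reached 33.7, 35.1, 31.2 and 32.3 CPM against 1.96 to 2.60 CPM (median 2.12). The groups were far apart at both times, with a log2 fold change of -3.41 ± 0.24 at 5 h (adjusted p = 3.9e-11) and -3.91 ± 0.21 at 18 h (adjusted p = 1.1e-13). Both values rest on the BMDM-WT groups through which alone Trim30b passed the filter. With no filter the edgeR adjusted p was 1.1e-12 at 5 h and 1.3e-15 at 18 h. The call at 1 h (adjusted p = 0.042) rested on 2 to 6 counts per BMDM-WT library and 0 to 1 per BMDM-Nur77-KO library. Computed against 3 counts, this puts BMDM-Nur77-KO at least 1.11-fold lower. The call held without BMDM-Nur77-KO replicate 4 and was lost without any other single library of 1 h. The adjusted p reached up to 0.14 (without BMDM-WT replicate 1).

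Trim6, the first gene along the chromosome, which also shares no such stretch, was rare at 0 and 1 h. In BMDM-WT it had 0.916, 0.623, 0.454 and 1.02 CPM at 0 h, and in BMDM-Nur77-KO at most 3 counts in each library at 0 and 1 h. At 5 h it had 2.05, 1.10, 1.33 and 1.89 CPM in BMDM-WT and 0.436, 0.755, 0.384 and 0.197 CPM in BMDM-Nur77-KO. By 18 h it had 5.49, 4.39, 5.22 and 4.58 CPM against 1.43, 1.07, 0.911 and 1.96 CPM. All BMDM-Nur77-KO libraries were below all BMDM-WT libraries at 5 and 18 h, with a log2 fold change of -1.79 ± 0.45 (adjusted p = 0.0057) and -1.87 ± 0.30 (adjusted p = 1.8e-05). The 18 h value rests on the group through which Trim6 passed the filter, and with no filter the adjusted p was 0.0072 at 5 h and 2.2e-05 at 18 h. At 1 h the libraries overlapped, with 0 to 6 counts in BMDM-WT, and no difference was detectable at this depth (adjusted p = 0.92).

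Trim30a, the gene of the cluster with the highest level in every group, was not called at any time. It had 106, 116, 107 and 127 CPM in BMDM-WT at 1 h and 83.3, 91.4, 106 and 104 CPM in BMDM-Nur77-KO. At 18 h it had 778, 826, 1008 and 750 CPM against 1118, 1039, 1116 and 1415 CPM. The order of the genotypes was thus opposite at these times, with log2 fold changes of -0.25 ± 0.12 at 1 h (adjusted p = 0.29), 0.34 ± 0.12 at 5 h (adjusted p = 0.036) and 0.48 ± 0.12 at 18 h (adjusted p = 0.0032), each under the limit of 0.58. The 5 h value was 0.21, with an adjusted p of 0.23, without BMDM-Nur77-KO replicate 1, which had 2375 CPM where the other three had 1624 to 1886 CPM.

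Trim30d, next to Trim30a and its closest copy, differed between genotypes at 1 h and was not called at 5 or 18 h. At 1 h it had 25.0, 27.3, 24.2 and 30.1 CPM in BMDM-WT and 3.17, 2.41, 3.99 and 4.66 CPM in BMDM-Nur77-KO. At 5 h it had 490, 439, 463 and 545 CPM against 493, 405, 339 and 348 CPM, and at 18 h 252, 253, 327 and 230 CPM against 256, 238, 265 and 337 CPM. The genotypes were fully apart at 1 h and overlapped at 5 and 18 h. The log2 fold change was -2.90 ± 0.17 at 1 h (adjusted p = 2.0e-13), -0.29 ± 0.13 at 5 h (adjusted p = 0.10) and 0.04 ± 0.13 at 18 h (adjusted p = 0.85). At 0 h the means were 19.6 ± 2.58 and 1.73 ± 0.252 CPM.

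Whether the genotype difference changed with time was tested between 1 h and each later time, which leaves out the 0 h libraries. From 1 to 5 h it changed for 2 of 9 members, Trim30a and Trim30d, against 4.06% of all tested genes. From 1 to 18 h it changed for the same pair, against 10.9% of all. The differences at 1 h can carry over those at 0 h, by which the genes were chosen. The shares of all genes are therefore no fair yardstick here either. The log2 fold change of Trim30d rose by 2.61 ± 0.22 by 5 h (adjusted p = 2.9e-09) and by 2.94 ± 0.22 by 18 h (adjusted p = 5.5e-11). That of Trim30a rose by 0.59 ± 0.17 (adjusted p = 0.044) and by 0.73 ± 0.17 (adjusted p = 0.0039). The Trim30a call to 5 h was lost without most single libraries, with an adjusted p of up to 0.11 (without BMDM-Nur77-KO replicate 1 of 5 h). Among these fits it held only without BMDM-Nur77-KO replicate 3 of 1 h or replicate 3 or 4 of 5 h. With no filter on low values it was lost as well (edgeR adjusted p = 0.062). For the other 7 members the test was not passed, and the changes to 5 h ranged from -1.51 for Trim6, with a BMDM-Nur77-KO group of at most 3 counts, to 0.71 ± 0.56 for Trim5.

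The sum of Trim30a and Trim30d, which share 89.9% of their aligned bases, was 141 ± 12.3 CPM in BMDM-WT and 99.8 ± 11.6 in BMDM-Nur77-KO at 1 h, lower in every BMDM-Nur77-KO library (exact permutation p = 0.0286, adjusted 0.0514). At 18 h it was 1106 ± 157 and 1446 ± 209 CPM, with overlapping libraries (exact permutation p = 0.0571, adjusted 0.0857). The share of Trim30a in this sum was 81.1% in BMDM-WT and 96.4% in BMDM-Nur77-KO at 1 h, and 76.0% and 81.1% at 18 h. At 1 h Trim30d had 181.5 tags in all over the 4 BMDM-Nur77-KO libraries, beside 4903.5 tags of Trim30a.

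The response to LPS was compared within each genotype. These comparisons share the 0 h libraries by which the genes were chosen, so the values are given for each genotype side by side and the difference between them was not tested relative to 0 h. Here the limit on the log2 fold change was 1, with the same limit on the adjusted p. In BMDM-WT, 8 of 9 members rose by 5 h, against 15.7% of all tested genes, and 9 of 9 by 18 h, against 13.1%. In BMDM-Nur77-KO, 8 of 9 rose by 5 h and 8 of 9 by 18 h, against 16.0% and 15.4%. The median log2 fold change of the members at 5 h was 2.70 in BMDM-WT and 3.01 in BMDM-Nur77-KO, whereas that of all tested genes was -0.15 and -0.12. Trim5 was the exception at 5 h in both genotypes and at 18 h in BMDM-Nur77-KO. Trim6 and Trim30b passed the filter on low values through BMDM-WT groups with LPS alone, which favours a rise. With no filter, 8 members rose by 5 h and 9 by 18 h in BMDM-WT, and 7 and 8 in BMDM-Nur77-KO. The call lost in BMDM-Nur77-KO at 5 h was that of Trim6 (edgeR adjusted p = 0.054).

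**Figure D4:**
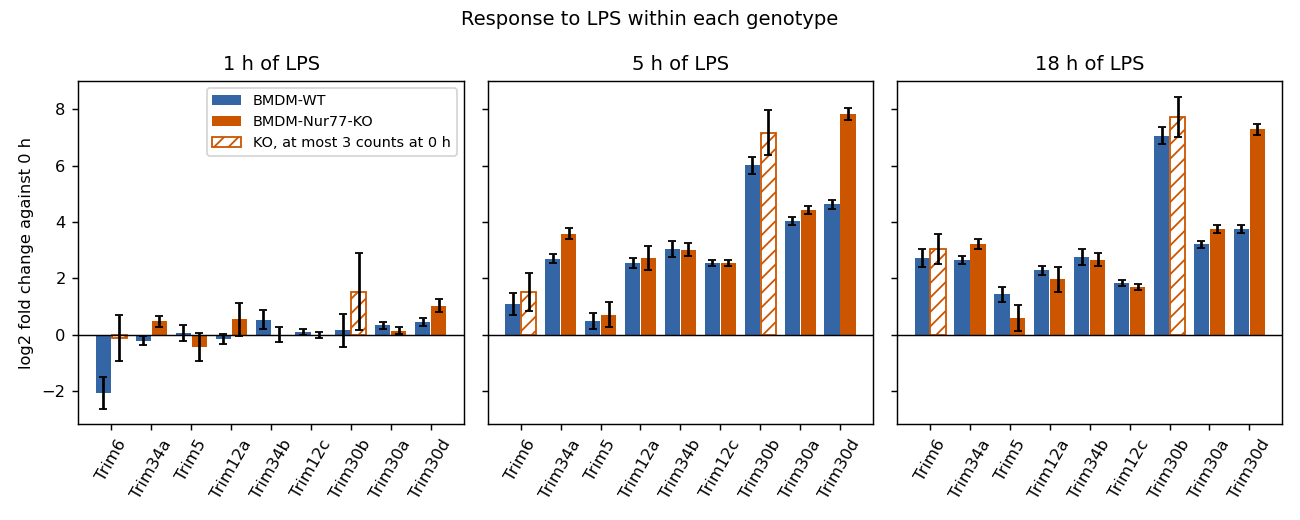
Log2 fold change against 0 h of each gene after 1, 5 and 18 h of LPS, in BMDM-WT (blue) and BMDM-Nur77-KO (orange), with standard errors of the fit. Hatched bars (Trim6 and Trim30b in BMDM-Nur77-KO) are fitted against a 0 h group with at most 3 counts in each library and are no measure of size. Both genotypes of Trim30d reach overlapping levels at 5 and 18 h from 0 h levels that differ and by which the genes were chosen, so the unequal bars of Trim30d are no result.

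Trim30a, at 91.0 ± 11.3 CPM in BMDM-WT at 0 h, reached 1485 ± 83.2 CPM at 5 h, a log2 fold change of 4.03 ± 0.13 (adjusted p = 6.0e-22), and stood at 841 ± 116 CPM at 18 h. In BMDM-Nur77-KO it went from 87.4 ± 8.54 to 1882 ± 349 CPM, a log2 fold change of 4.43 ± 0.14 (adjusted p = 9.1e-23), and stood at 1172 ± 166 CPM at 18 h. For Trim30d the log2 fold change at 5 h was 4.63 ± 0.16 in BMDM-WT and 7.83 ± 0.20 in BMDM-Nur77-KO, a gap that the 0 h levels fix and that is given as a description. Its means at 5 h, 484 ± 45.8 and 396 ± 70.6 CPM, overlapped between genotypes, whereas the starting means were 19.6 and 1.73 CPM.

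Trim12a rose from its low level in BMDM-Nur77-KO too, by 2.73 ± 0.42 at 5 h (adjusted p = 1.4e-06), beside 2.55 ± 0.17 in BMDM-WT (adjusted p = 4.0e-14). Trim34a rose by 2.70 ± 0.15 in BMDM-WT and 3.59 ± 0.18 in BMDM-Nur77-KO, Trim34b by 3.04 ± 0.28 and 3.01 ± 0.23, and Trim12c by 2.55 ± 0.11 and 2.54 ± 0.11, all at 5 h on the log2 scale and all called. Trim30b rose by 6.01 ± 0.30 at 5 h (adjusted p = 2.2e-16) and by 7.07 ± 0.29 at 18 h (adjusted p = 2.4e-18) in BMDM-WT, from 1 to 7 counts per library. It passed the filter through these later groups alone, and with no filter the edgeR adjusted p was 1.2e-18 and 4.7e-21. BMDM-Nur77-KO reached a level at least 6.32-fold higher at 5 h and at least 9.43-fold higher at 18 h, computed against 3 counts per library at 0 h. Trim30b and Trim6 had higher mean CPM at 18 h than at 5 h in both genotypes, unlike Trim30a, Trim30d and Trim12c, whose mean CPM was higher at 5 h.

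Trim5 rose by 1.43 ± 0.27 at 18 h in BMDM-WT (adjusted p = 2.7e-05), and its log2 fold change at 18 h in BMDM-Nur77-KO was 0.59 ± 0.45 (adjusted p = 0.24). Trim6 rose by 2.71 ± 0.32 at 18 h in BMDM-WT (adjusted p = 9.5e-09, or 5.9e-09 without the filter that it passed through this group) and, in BMDM-Nur77-KO, by at least 5.77-fold (against 3 counts per library at 0 h). Its calls at 5 h were lost in several fits without a single library. In BMDM-WT these left out replicate 2 or 3 of 0 h or replicate 1 of 5 h, the last with an adjusted p of 0.055. In BMDM-Nur77-KO the call held only without replicate 4 of either time, and the adjusted p reached 0.21 (without replicate 2 of 5 h). At 1 h, Trim6 fell by 2.07 ± 0.56 on the log2 scale in BMDM-WT (adjusted p = 0.0071, against 1.76% of all tested genes), from 6 to 14 counts per library to 0 to 6. Trim30d rose in BMDM-Nur77-KO at 1 h by 1.03 ± 0.23 (adjusted p = 0.0013, against 3.23% of all), from 1.43 to 1.96 CPM to 2.41 to 4.66 CPM. Without replicate 3 or 4 of either time this value no longer passed the limit of 1, with a range of 0.87 to 1.18 and an adjusted p of up to 0.013 when single libraries were left out. Its value in BMDM-WT at 1 h, 0.44 ± 0.14 (adjusted p = 0.028), was under the fold limit.

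Gene lists of the pathway were described beside the cluster. Of 20 interferon-stimulated genes such as Ifit1, Isg15 and Mx1, 20 rose at 5 h and 20 at 18 h in both genotypes, with a median log2 fold change at 5 h of 5.92 in BMDM-WT and 6.48 in BMDM-Nur77-KO. Between genotypes at 1 h, 0 of the 20 were higher and 1 had a lower level in BMDM-Nur77-KO. At 5 h 1 was higher and 1 lower, and at 18 h 5 were higher and 1 lower. The medians at these times were 0.02, -0.03 and 0.50. Of all tested genes, 1.51% were higher and 1.36% lower at 1 h. These shares were 5.60% and 3.13% at 5 h, and 5.71% and 4.11% at 18 h. DESeq2 gave the same counts for this list, and at an unadjusted edgeR p under 0.05 0 were higher and 2 lower at 1 h, 3 higher and 5 lower at 5 h, and 15 higher and 1 lower at 18 h. The lower gene was Ddx58, the RNA sensor RIG-I, at all 3 times, with log2 fold changes of -1.91 ± 0.10, -1.55 ± 0.10 and -0.97 ± 0.09 (adjusted p = 3.2e-14, 5.2e-13 and 3.1e-09), a gene named after its values were seen.

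Of 12 genes of interferon signalling such as Ifnb1 and Irf7, 0 were called between genotypes at 1 and 5 h, and 3 were higher in BMDM-Nur77-KO at 18 h (Ifnb1, Irf1 and Socs1). DESeq2 also called 0 at 1 and 5 h, and at an unadjusted edgeR p under 0.05 there was 1 higher at 1 h and 3 lower at 5 h. Of the 29 tested Trim genes outside the cluster, 0 were called at 1 h. At 5 h 4 were higher and 0 lower, and at 18 h 5 were higher and 2 lower. With 1.51% of all tested genes higher and 1.36% lower at 1 h, 0 calls among 12 or 29 genes mark no contrast with other genes. DESeq2 called 0 of the 29 at 1 h too, and 2 were higher and 1 lower at an unadjusted edgeR p under 0.05. Trim59 was higher at 5 and 18 h (1.78 ± 0.28, adjusted p = 3.8e-05, and 0.95 ± 0.23, adjusted p = 0.0028), and Trim47 was higher at 5 h (0.79 ± 0.19, adjusted p = 0.0040) and lower at 18 h (-0.83 ± 0.30, adjusted p = 0.047). Among these 29 genes, 7 rose and 8 fell by 5 h in BMDM-WT, where 15.7% of all tested genes rose and 18.0% fell.

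The surroundings of the cluster on chromosome 7 were examined for the same difference. Of 106 other genes within 1 Mb, 93 had 0 counts in every library and only 2 were tested. Fam160a2, 0.863 Mb away, was not called at any time, with a log2 fold change of 0.14 ± 0.12 at 1 h (adjusted p = 0.67). Gm15133 overlaps the 5′ end of Trim12a (104315031 to 104324838) and was lower at 18 h (0.553 ± 0.0554 against 1.47 ± 0.335 CPM, log2 fold change -1.39 ± 0.37, adjusted p = 0.0075). Whether the counting used the strand is not stated, so its reads and those of Trim12a cannot be told apart where they overlap.

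Between 1 and 3 Mb away, a distance chosen after the values were seen, 2 of 39 tested genes (5.13%) were called at 2 or more of the 3 times, against 2.38% further away on chromosome 7 and 3.52% on other chromosomes. At 1 h alone, 4 of the 39 (10.3%) were called, against 2.63% and 2.80%. The genes called more than once were Folr2, higher at all 3 times (log2 fold change 0.87 ± 0.08 at 1 h, adjusted p = 4.7e-09), and Gm1966, lower at 1 h (-1.21 ± 0.27, adjusted p = 0.0041) and at 18 h (-1.01 ± 0.22, adjusted p = 8.9e-04). At 5 h Gm1966 had the opposite sign (0.55 ± 0.22, adjusted p = 0.060), and its genotype difference changed from 1 to 5 h by 1.76 ± 0.35 (adjusted p = 0.0027). Gm4070 and Gvin1 were lower at 1 h, each with -1.01 ± 0.21 (adjusted p = 0.0016). Whether these equal values come from the same reads was not tested, so the 4 of 39 may count the same reads more than once. The 1 h values of Gm1966, Gm4070 and Gvin1 are larger in size than those of Trim6, Trim12c, Trim30a and Trim34b and smaller than those of the 5 members called lower. The labels give the same strain for both genotypes, the table holds counts and no bases, and whether the 2 genotypes carry the same sequence of this segment was not tested.

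**Figure D5:**
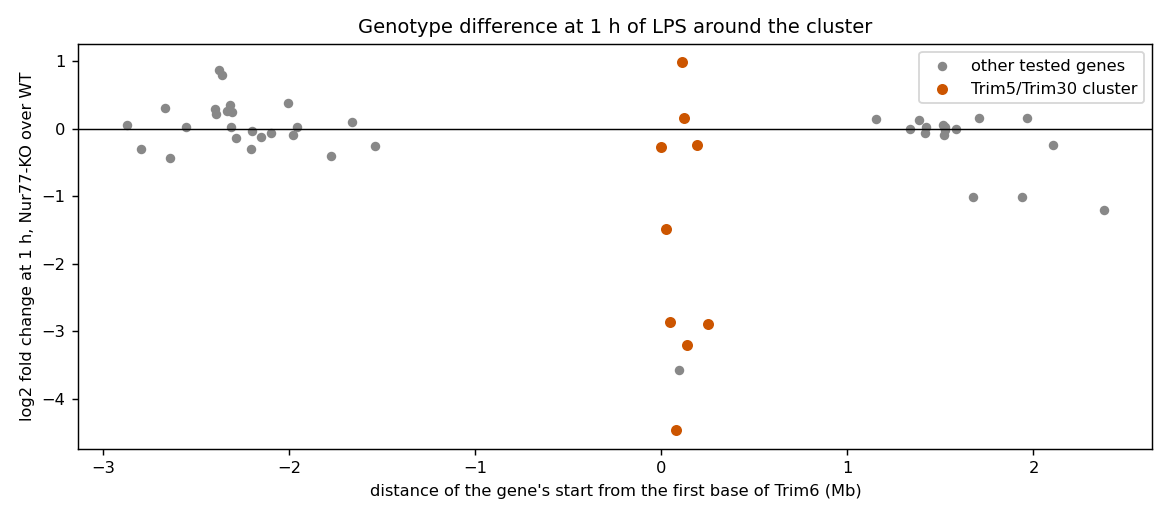
Log2 fold change of BMDM-Nur77-KO over BMDM-WT at 1 h of LPS for every tested gene from 3 Mb before to about 3 Mb after the first base of Trim6, by the distance of the gene's start in Mb. Orange points are genes of the cluster and grey points the 41 other genes, of which 40 lie within 1.5 of 0; the grey point at -3.57 is Gm15133, with 0 counts in all BMDM-Nur77-KO libraries at 1 h, and was not called.

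The patterns over the 8 groups differed between members. As a description over 8 group means of log2 CPM, Pearson's r was 0.97 between Trim5 and Trim12a, 0.99 between Trim12c and Trim30a, 0.93 between Trim30a and Trim30d, and -0.05 between Trim12a and Trim34b. The tested genes outside the cluster most like Trim30a were Vcan, Samd9l, Sp140, Samhd1 and Parp14 (r from 0.9981 to 0.9988 over the 8 groups), and those most like Trim30d were Ifi209, Slamf7, Cxcl9, Gm4070 and Gvin1 (r from 0.9801 to 0.9840). Gm4070 and Gvin1 lie on chromosome 7 as well, and with the same r (0.9801) they may not be separate genes of this list. The points share libraries and the strong rise with LPS. They include the 0 h groups by which the members were chosen, so the differences between members can repeat that choice.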

How the data were processed

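RNA-seq of BMDMs was analysed from 1 deposited table of expected counts, made by the authors without normalization. Per the labels and methods, reads were aligned to mm10 with HISAT2 2.1.0, filtered on mapping quality with SAMtools and counted with HOMER on RefSeq transcripts, 42361 in all. A single mate of a pair counts 0.5, and 28.6% of values are not whole. 93 transcripts, with 0.233% to 1.37% of tags, had no gene name and were left out. For each gene the transcript with the highest mean was kept and its count rounded.

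Counts were scaled with TMM and tested with edgeR 4.0.16 (R 4.3.3) in 1 model with a mean for each of 8 groups. Testing was limited to the 11258 genes whose mean RPKM passed 1 in any group, with Benjamini-Hochberg adjustment over all of them. The code was tested on simulated data. The values of CPM are per 1000000 tags, scaled by TMM, and n is 4 per group unless stated. Transcripts and promoters were compared with GENCODE and RefSeq sequences. Bounds were computed against 3 counts per library and cover counting error only.

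The text names all members, the tested Trim genes and neighbours within 1 Mb called at 2 or more of 1, 5 and 18 h, and the 5 genes most like each of the 2 most abundant members. Gm15133, Fam160a2, Folr2, Gm1966 and Ddx58 (Gm4070 and Gvin1 at 1 h too) were named after their values were seen. The members and lists were chosen with earlier results of these data known. The alternatives were DESeq2 1.42.0, its size factors in edgeR, other filters, summed transcripts, a fit to the compared libraries only, a replicate block, other fold limits and leaving out each library in turn. Replicates of the same number were not paired (r of their deviations from -0.505 to 0.46).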

Additional observations from a re-analysis of the deposited data

Results flagged for a closer look

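In 5 of 68 groups of 4 libraries, 1 library stood apart from the other three by Dixon's criterion, and chance alone marks about 1 in 20 groups. Trim34a had 19.5 CPM in BMDM-Nur77-KO replicate 3 at 18 h, where the others had 25.7 to 26.4. Trim5 had 5.22 CPM in BMDM-WT replicate 3 at 5 h, where the others had 6.86 to 7.06. BMDM-Nur77-KO replicate 3 at 1 h had 0.639 CPM of Trim12a, where the others had 0.301 to 0.342, and 41.4 CPM of Trim12c, where the others had 33.4 to 34.2. Trim30b had 0.427 CPM in BMDM-WT replicate 1 at 1 h, where the others had 0.201 to 0.211.

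The genotype difference of 2 genes changed with time. For Trim30d it rose by 2.61 from 1 to 5 h and by 2.94 from 1 to 18 h on the log2 scale. For Trim30a it rose by 0.59, a call that was lost without most single libraries, and by 0.73.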

How the results depend on the processing

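Of 1628 values of single members under the alternatives, 1533 kept their direction and their side of an adjusted p of 0.05. A further 51 no longer passed that threshold, 14 newly passed it and 30 changed sign, all of the last with no call. The limits on the fold change were not applied in these counts, so they are not counts of calls. The replicate block gave 5 members called between genotypes at 1 h in place of 6, 7 raised at 5 h in BMDM-Nur77-KO in place of 8, and 1 whose genotype difference changed from 1 to 5 h in place of 2. The last count was also 1 with filterByExpr, with no filter and with only the compared libraries in the fit, and 1 to 2 without single libraries. Leaving out single libraries gave 4 to 5 members called at 1 h (main 6), 6 at 5 and 18 h, and 0 to 1 raised at 1 h in BMDM-Nur77-KO (main 1). With no fold limit, 2 members were called at 1 h of LPS in BMDM-WT in place of 1.

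Signs changed without single libraries for these log2 values. Between genotypes, Trim6 at 1 h ranged from -0.70 to 0.73 and Trim30d at 18 h from -0.07 to 0.16. For LPS at 1 h, the range in BMDM-WT was -0.05 to 0.16 for Trim5 and -0.18 to 0.78 for Trim30b. In BMDM-Nur77-KO it was -0.53 to 0.28 for Trim6, -0.10 to 0.13 for Trim34b and -0.10 to 0.02 for Trim12c. For the change from 1 to 5 h it was -0.03 to 0.19 for Trim12c and -0.56 to 1.32 for Trim30b (0.07 with DESeq2), and to 18 h -0.67 to 0.37 for Trim5, -0.11 to 0.04 for Trim12c and -1.06 to 0.82 for Trim30b.

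Over all tested genes, 983 were called between genotypes at 5 h and 303 with only the compared libraries in the fit. The change from 1 to 5 h was called for 457 genes, for 779 with DESeq2, 206 with only the compared libraries and 286 with no filter. The causes were not tested. Depth limits Trim6 and Trim30b at 0 and 1 h, where groups had 3 counts or fewer per library.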
